A study of Homo sapiens with 12 samples.

Results

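The enzymes that make serine and pass its carbon to folate were examined as 9 genes: PHGDH, PSAT1, PSPH, SHMT1, SHMT2, MTHFD1, MTHFD2, MTHFD1L and ALDH1L2. Members were all 20 probe sets annotated to exactly 1 of these symbols, out of 41091 probe sets with 1 symbol on the array. Another 5 probe sets carry a member's symbol together with others and were not used, namely 1 for PHGDH, 2 for SHMT1 and 2 for MTHFD1L. The cells were ML-2, an established human acute myeloid leukaemia line, profiled on 12 Affymetrix arrays in 4 groups of 3. Solvent arrays received neither agent. SGI-110, a hypomethylating prodrug of decitabine also called guadecitabine, was given at 2 µM for 33 h. ASTX660, an antagonist of inhibitor of apoptosis proteins, was given at 5 µM for 9 h. The combination had 24 h of SGI-110 before the 9 h with ASTX660. The sources used here do not say whether SGI-110 stayed on during those 9 h. Arrays are named by group and by the number in their title (2, 9 or 13). The 3 arrays of a group were read as independent experiments, which the labels do not state.

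The serine pathway branches off glycolysis at 3-phosphoglycerate. PHGDH oxidises that intermediate, PSAT1 transaminates the product and PSPH removes the phosphate to give serine. SHMT2 in mitochondria and SHMT1 in the cytosol then split serine into glycine and a one-carbon unit carried by folate, which MTHFD2, MTHFD1L and ALDH1L2 process in mitochondria and MTHFD1 in the cytosol. The units feed purine and thymidylate synthesis, and transcription of many of these genes is known to be driven by ATF4 and MYC.

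Upstream sequences are shown for 3 genes that fell together with SGI-110 (PHGDH, MTHFD2 and MTHFD1) and for PSAT1, whose probe sets were dim, because SGI-110 acts on methylation of cytosine in CpG pairs. Each run is the 250 bases before the RefSeq start of transcription, read 5′ to 3′ on the gene's strand, with CpG pairs in capitals. They are GRCh38.p14 chr1:119711684-119711933 (PHGDH), chr2:74198365-74198614 (MTHFD2), chr14:64388103-64388352 (MTHFD1) and chr9:78296875-78297124 (PSAT1), all on the plus strand.
PHGDH: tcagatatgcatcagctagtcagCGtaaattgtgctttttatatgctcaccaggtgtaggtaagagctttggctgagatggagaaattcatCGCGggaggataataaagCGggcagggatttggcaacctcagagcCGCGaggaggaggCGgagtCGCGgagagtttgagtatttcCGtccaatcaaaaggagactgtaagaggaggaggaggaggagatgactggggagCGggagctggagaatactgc
MTHFD2: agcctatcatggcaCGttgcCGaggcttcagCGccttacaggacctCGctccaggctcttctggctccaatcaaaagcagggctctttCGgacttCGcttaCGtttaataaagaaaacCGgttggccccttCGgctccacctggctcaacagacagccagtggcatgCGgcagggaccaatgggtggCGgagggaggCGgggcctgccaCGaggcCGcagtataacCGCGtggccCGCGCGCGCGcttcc
MTHFD1: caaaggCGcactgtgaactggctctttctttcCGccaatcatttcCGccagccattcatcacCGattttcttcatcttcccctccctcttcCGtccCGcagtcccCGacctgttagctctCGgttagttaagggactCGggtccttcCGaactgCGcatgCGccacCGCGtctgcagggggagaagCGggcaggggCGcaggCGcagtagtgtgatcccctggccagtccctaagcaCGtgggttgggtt
PSAT1: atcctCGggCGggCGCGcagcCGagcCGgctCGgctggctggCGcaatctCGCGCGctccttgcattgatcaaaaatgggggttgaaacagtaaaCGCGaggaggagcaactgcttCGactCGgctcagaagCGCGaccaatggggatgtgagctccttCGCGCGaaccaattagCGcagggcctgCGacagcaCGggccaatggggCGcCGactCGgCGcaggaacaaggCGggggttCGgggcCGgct
PHGDH has 11 CpG pairs in this window, MTHFD1 has 18, MTHFD2 has 21 and PSAT1 has 30. The median over 35116 such windows in the RefSeq table is 11, with quartiles of 3 and 23. PSAT1 therefore lies above the upper quartile, with more pairs than 87.6% of windows. Of the other dim genes, not printed, SHMT1 has 19 pairs, more than 65.4% of windows. The MTHFD1L windows have 31, 32, 33 and 5. The E-box CACGTG, a letter pattern that MYC and its partners are known to bind, is in the MTHFD1 window from 15 to 10 bases before the start and in none of the other printed windows. It occurs in 6.34% of all windows. The pattern TGATGNAA, the core of C/EBP-ATF sites that ATF4 is known to bind, is in 3.14% of all windows on either strand and in none of the 4 printed here. MTHFD1L, which has 4 windows in the table, holds both patterns in 2 of them, which overlap and share the matches. Methylation was not measured, so the letters carry no level. Of the 9 genes, 6 matched the table, and PSPH, SHMT2 and ALDH1L2 did not.

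Values are RMA log2 intensities, for which a difference of 1 is a doubling, and each gene was read from its brightest probe set, judged by the mean of the 12 arrays. Testing required a reading above the array's own median (4.688 to 4.774) on 3 or more arrays. This kept 12689 of 19775 genes and 8 of the 9 members, and MTHFD1L did not pass. Tests are limma's, with Benjamini-Hochberg adjustment over the 12689 genes, and a call means an adjusted p under 0.05. Array medians differed little between groups. The first principal component (51.2% of variance) parted arrays with SGI-110 from the others, and ASTX660 array 2 stood apart on the third, at 16.95 against −9.277 to 4.108. All 9 myeloid markers with a probe set (MPO, ELANE, CTSG and others) passed this filter, with a mean log2 level per gene of 11.52 to 11.79 on each array. Of markers of other cells 3 of 5 lymphoid, 2 of 3 erythroid and 4 of 6 fibroblast or epithelial genes passed it too, while KLF1 and EPCAM were below the median on all arrays. With SGI-110 against solvent KRT18 rose by 0.825 (limma adjusted p = 0.0135), while KRT8 gave 0.539 and did not pass (0.0719). The other tested genes of that list, COL1A1 and DCN, gave 0.05 and −0.05, and neither passed. The summed log2 level of the fibroblast or epithelial list was 31.37 to 32.48 in solvent arrays and 32.68 to 34.02 in SGI-110 arrays. The part of these markers in the enzyme results was not tested.

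**Figure D1:**
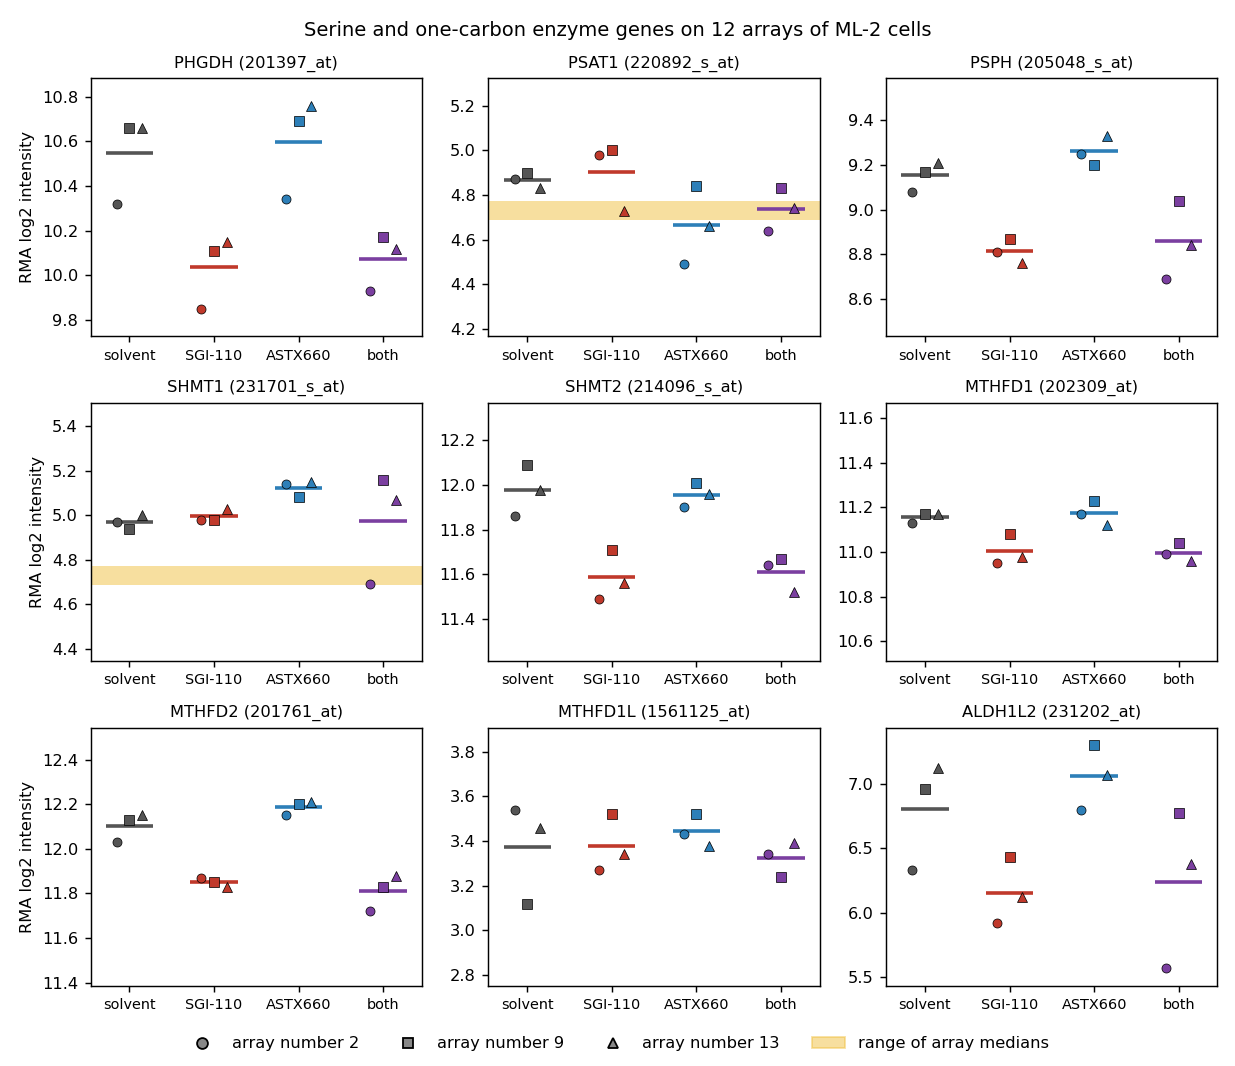
RMA log2 intensity (vertical axis, own range in each panel) of the 9 enzyme genes on each of the 12 arrays, with 1 symbol per array number and a bar at the group mean; the yellow band, where it falls in a panel, is the range of array medians, and "both" is the combination. For PHGDH, PSPH, SHMT2, MTHFD1 and MTHFD2 the 6 arrays with SGI-110 all lie below the 6 without it, while PSAT1 and SHMT1 lie close to the array medians and MTHFD1L lies below them.

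Most of the measurable pathway was lower with SGI-110. Taking the 6 arrays with SGI-110 (alone or in the combination) against the 6 without, PHGDH, PSPH, SHMT2, MTHFD1, MTHFD2 and ALDH1L2 fell, and none of the 8 tested members rose. PSAT1 and SHMT1 did not pass. So 6 of 8 were called lower, where 29.9% of all genes tested were called, 14.1% lower and 15.8% higher. The median change of the 8 was −0.34 log2 units beside −0.005 for all genes. In 5 of the 8 every array with SGI-110 lay below every array without it, which held for 7.92% of all genes. This count of 6 was the same under all 23 alternative settings, including each array left out in turn. In whole cultures, fewer cells making an RNA and less RNA per cell cannot be told apart.

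PHGDH, the first step of serine synthesis, was lower on every array with SGI-110. It read 10.32, 10.66 and 10.66 in the solvent arrays 2, 9 and 13, and 9.85, 10.11 and 10.15 in the SGI-110 arrays. With ASTX660 it read 10.34, 10.69 and 10.76, and with the combination 9.93, 10.17 and 10.12. Array 2 was the lowest of its group in all 4 groups, yet no array with SGI-110 reached any array without it. Pooled over ASTX660, PHGDH fell by 0.52 (SE 0.084, 1.43-fold, limma adjusted p = 0.000391), and only 0.496% of the genes tested had a lower change. Within numbers 2, 9 and 13 the pooled differences were −0.44, −0.53 and −0.57. SGI-110 alone gave −0.51 (95% interval −0.77 to −0.26, limma adjusted p = 0.0102), leaving a level of 70.14% of solvent. That call was lost without SGI-110 array 2 (−0.42, limma adjusted p = 0.054, within a range of 1.8e-07 to 0.054 over its alternatives).

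PSPH, the last step, fell on both of its bright probe sets but by unequal amounts. The brighter one, 205048_s_at, read 9.08, 9.17 and 9.21 in solvent, 8.81, 8.87 and 8.76 with SGI-110, 9.25, 9.20 and 9.33 with ASTX660, and 8.69, 9.04 and 8.84 with the combination. Every array with SGI-110 was below every array without it. The pooled fall was 0.37 (SE 0.0561, 1.295-fold, limma adjusted p = 0.000219). The second, 205194_at, went from 8.36, 8.29 and 8.42 in solvent to 7.52, 7.74 and 7.46 with SGI-110, and from 8.35, 8.51 and 8.52 with ASTX660 to 7.34, 7.90 and 7.60 with the combination. Its pooled fall was 0.81 (SE 0.0839, 1.759-fold, limma adjusted p = 1.31e-05 over 23660 probe sets, of which 12.5% were called lower). Both probe sets thus moved the same way, and the size for the gene depends on which is read. The third, 244819_x_at, stayed below the median on all arrays, at 3.07 to 3.52.

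PSAT1, the enzyme between them, gave no bright signal on either probe set. On 220892_s_at it read 4.87, 4.90 and 4.83 in solvent, 4.98, 5.00 and 4.73 with SGI-110, 4.49, 4.84 and 4.66 with ASTX660, and 4.64, 4.83 and 4.74 with the combination. These values straddle the array medians, and the groups overlap. The other probe set, 223062_s_at, averaged 2.457 (SD 0.0945, n = 3) in solvent and 2.743 (SD 0.179) with SGI-110, under the median on all 12 arrays. The tested probe set changed by 0.06 with SGI-110 in the pooled comparison (95% interval −0.10 to 0.22, limma adjusted p = 0.627). At this brightness a change of the transcript may not be visible, so the result does not show that PSAT1 held its level.

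SHMT2, the mitochondrial enzyme that splits serine, fell on all 3 of its probe sets. The brightest, 214096_s_at, read 11.86, 12.09 and 11.98 in solvent and 11.49, 11.71 and 11.56 with SGI-110. ASTX660 arrays read 11.90, 12.01 and 11.96, and combination arrays 11.64, 11.67 and 11.52. The arrays with SGI-110 lay wholly below the others. The pooled fall was 0.37 (SE 0.046, 1.293-fold, limma adjusted p = 4.44e-05), and 1.74% of genes had a lower change. Probe set 214437_s_at gave the same pooled size (−0.37), while 214095_at fell by 0.60 (1.515-fold). No alternative setting ended a call for SHMT2 in the comparisons of SGI-110 or the combination with solvent, with adjusted p up to 0.00887 and 0.00987.

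Its cytosolic counterpart SHMT1 was near background on the brighter of the 2 probe sets read. Another 2 that carry several symbols were not used. Probe set 231701_s_at gave 4.97, 4.94 and 5.00 in solvent, 4.98, 4.98 and 5.03 with SGI-110, 5.14, 5.08 and 5.15 with ASTX660, and 4.69, 5.16 and 5.07 with the combination. The 3 ASTX660 arrays lay above the 3 solvent arrays, as they did for 7.59% of all genes, and the difference of 0.15 did not pass (limma adjusted p = 0.77). Pooled over ASTX660 the SGI-110 difference was −0.06 (95% interval −0.22 to 0.10, adjusted p = 0.615). The other probe set, 217304_at, was under the median on all arrays.

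In the folate steps MTHFD2, the mitochondrial dehydrogenase and cyclohydrolase, changed most steadily. It read 12.03, 12.13 and 12.15 in solvent and 11.87, 11.85 and 11.83 with SGI-110, a spread of only 0.0192 (SD) in the latter. ASTX660 arrays read 12.15, 12.20 and 12.21, and combination arrays 11.72, 11.83 and 11.88. The arrays with SGI-110 were all below those without. MTHFD2 fell by 0.32 in the pooled comparison (SE 0.0312, 1.244-fold, limma adjusted p = 6.7e-06), the smallest adjusted p among the 8 genes. Its change was modest in size: 2.96% of genes had a lower one. A second probe set annotated to MTHFD2, 234976_x_at, fell by 0.54 (1.454-fold, limma adjusted p = 1.86e-05 over 23660 probe sets). The suffix of that probe set marks probes that can also read related transcripts.

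MTHFD1, the cytosolic enzyme with 3 folate activities, moved least among the called genes. Its arrays read 11.13, 11.17 and 11.17 in solvent, 10.95, 11.08 and 10.98 with SGI-110, 11.17, 11.23 and 11.12 with ASTX660, and 10.99, 11.04 and 10.96 with the combination. The highest SGI-110 array, at 11.08, stayed under the lowest array without it, at 11.12. The pooled fall was 0.17 (SE 0.0316, 1.123-fold, limma adjusted p = 0.00116), and 12% of genes had a lower change. With 3 arrays against 3 the call for SGI-110 alone (−0.15, limma adjusted p = 0.0335) was lost in 9 of 17 alternatives. Among these, leaving out solvent array 2, 9 or 13 gave limma adjusted p of 0.0576, 0.108 and 0.0971, and leaving out SGI-110 array 2 or 13 gave 0.127 and 0.104, within a range of 0.00388 to 0.507. Averaging MTHFD1 with its dim second probe set gave −0.07 (limma adjusted p = 0.507). With all arrays kept, the call was also lost with median centring (limma adjusted p = 0.0586), quantile normalization (0.0592) and no intensity trend (0.0879).

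ALDH1L2, which oxidises the mitochondrial folate-bound unit to carbon dioxide, had the largest pooled fall when each gene is read from its brightest probe set, and the widest standard error. Its arrays 2, 9 and 13 read 6.33, 6.96 and 7.12 in solvent, 5.92, 6.43 and 6.12 with SGI-110, 6.80, 7.30 and 7.07 with ASTX660, and 5.57, 6.77 and 6.38 with the combination. Groups overlap, because array 2 was low throughout, by 0.41 on average from its group mean. The pooled fall was 0.73 (SE 0.185, 1.661-fold, limma adjusted p = 0.0082), with −0.82, −0.53 and −0.85 within numbers 2, 9 and 13. Against solvent neither SGI-110 (−0.65, limma adjusted p = 0.118) nor the combination (−0.56, 0.155) passed. With the replicate number as a block both did, at limma adjusted p = 0.000754 and 0.00223, the lowest over their alternatives, whose highest were 0.323 and 0.535. SGI-110 also passed without solvent array 2 (−0.89, limma adjusted p = 0.0498) and the combination without combination array 9 (−0.83, limma adjusted p = 0.044). The other 2 probe sets were below the median on all arrays, and averaging all 3 gave a pooled change of −0.38 (limma adjusted p = 0.0101, the pooled range being 2.83e-06 to 0.0315).

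MTHFD1L, which makes formate in mitochondria, was not measurable on the 2 probe sets read here. Its 2 probe sets that carry several symbols were not used. Probe set 1561125_at averaged 3.372 (SD 0.226, n = 3) in solvent, 3.375 (SD 0.126) with SGI-110, 3.446 (SD 0.0717) with ASTX660 and 3.327 (SD 0.0761) with the combination. Probe set 225518_x_at averaged 3.274 to 3.419. Every one of these values was below the array median, so they bound the signal of these probes and give no change for the gene.

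**Figure D2:**
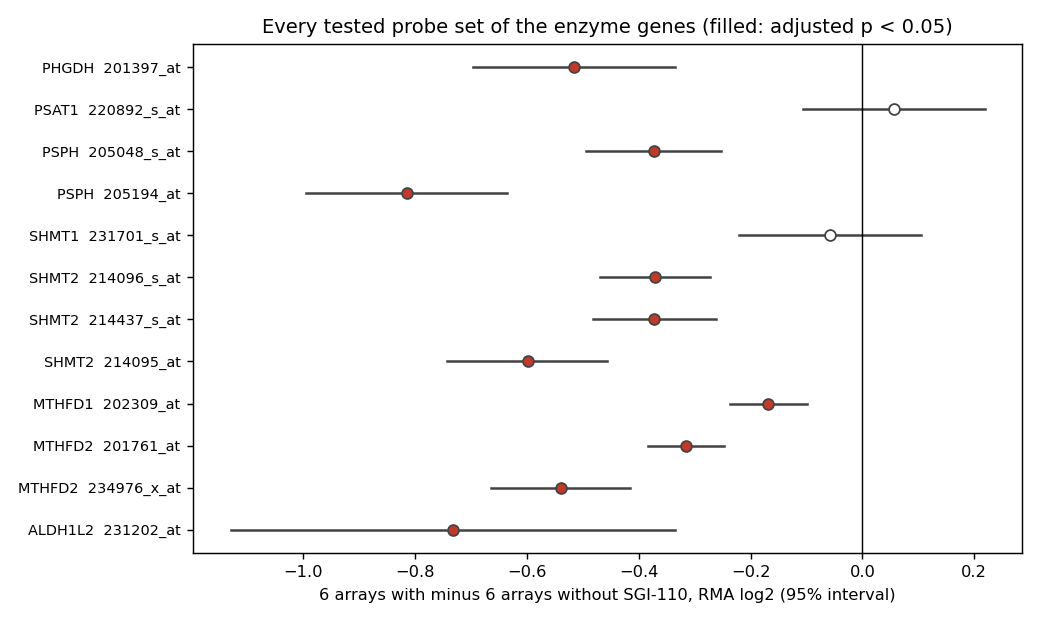
Pooled SGI-110 difference (6 arrays with minus 6 without, RMA log2, horizontal axis) with its 95% interval for each of the 12 tested probe sets of the enzyme genes; filled points passed an adjusted p of 0.05 over 23660 probe sets. All tested probe sets of PSPH, SHMT2 and MTHFD2 lie left of 0, from −0.32 to −0.81, while PSAT1 and SHMT1 span 0.

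Against solvent, both regimens that held SGI-110 gave the same 5 called genes. SGI-110 alone called PHGDH, PSPH, SHMT2, MTHFD1 and MTHFD2 lower, and so did the combination, with 0 of 8 higher in each. Over all genes 5.9% were called lower and 9.5% higher with SGI-110, and 5.85% lower and 12.1% higher with the combination. Medians of the 8 members were −0.30 in both, beside 0 and 0.001 for all genes. These comparisons share the solvent arrays, so their likeness is no independent repeat. With the combination PHGDH fell by 0.47, PSPH by 0.30 (limma adjusted p = 0.019), SHMT2 by 0.37 (limma adjusted p = 0.00165), MTHFD1 by 0.16 and MTHFD2 by 0.29 (limma adjusted p = 0.000566). With the replicate number as a block 6 of 8 members were called lower in each, ALDH1L2 being added, while all genes called in either direction went from 15.4% to 25.2% for SGI-110 and from 17.9% to 28.6% for the combination.

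With fewer arrays some of the 5 calls with the combination were lost, mostly at a similar size, while SHMT2 and MTHFD2 passed in every alternative run. PHGDH (−0.47, limma adjusted p = 0.0144) gave changes of −0.41, −0.41 and −0.40 and adjusted p of 0.0661, 0.0542 and 0.0678 without solvent array 9, solvent array 13 and combination array 2, over a range of 4.79e-07 to 0.0678. PSPH (−0.30) gave changes of −0.29, −0.27, −0.21 and −0.29 and adjusted p of 0.0628, 0.0671, 0.0829 and 0.0579 without solvent array 9, solvent array 13, combination array 2 and combination array 13, range 0.000978 to 0.0829. MTHFD1 (−0.16, limma adjusted p = 0.0216) gave changes of −0.15, −0.16, −0.16 and −0.15 and adjusted p of 0.0774, 0.0647, 0.0604 and 0.0817 without the same 4 arrays, range 0.00209 to 0.523. The count of members called was then 2 without solvent array 9, solvent array 13 or combination array 2, and 3 without combination array 13. For SGI-110 against solvent it was 3 without SGI-110 array 2. With all arrays kept, MTHFD1 also lost its combination call in some settings. These were median centring (limma adjusted p = 0.0788), no intensity trend (0.0597) and averaged probe sets (0.523).

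**Figure D3:**
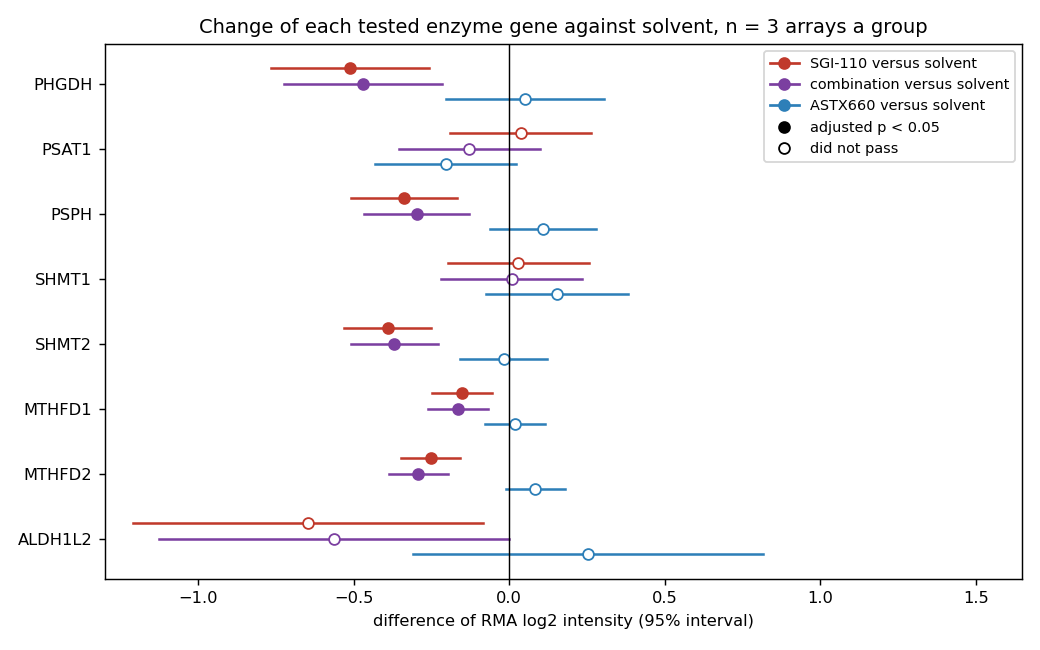
Difference from solvent in RMA log2 intensity (horizontal axis) with its 95% interval for the 8 tested genes, for SGI-110, the combination and ASTX660, each 3 arrays against the same 3 solvent arrays; filled points passed an adjusted p of 0.05. The SGI-110 and combination points lie side by side left of 0 for PHGDH, PSPH, SHMT2, MTHFD1, MTHFD2 and ALDH1L2, and no ASTX660 point is filled.

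ASTX660 alone moved no member past the test. Differences from solvent were 0.05 for PHGDH, 0.11 for PSPH, −0.02 for SHMT2, 0.02 for MTHFD1, 0.08 for MTHFD2 and 0.25 for ALDH1L2, with −0.20 for PSAT1. limma called 0 of 12689 genes in this comparison (0%), while 7.05% had an unadjusted p below 0.05. None of the 8 members, each read from its brightest probe set, was among that 7.05%, the lowest being PSAT1 (unadjusted p = 0.0739). Among all tested probe sets of the members, only 234976_x_at for MTHFD2 had an unadjusted p below 0.05. It was higher with ASTX660 by 0.202 (95% interval 0.025 to 0.378, limma unadjusted p = 0.028). That difference did not pass limma's adjustment over the tested probe sets (adjusted p = 0.674). Pooled over SGI-110, 6 arrays with ASTX660 against 6 without, the 95% intervals were −0.13 to 0.23 for PHGDH, −0.10 to 0.10 for SHMT2, −0.06 to 0.07 for MTHFD1 and −0.04 to 0.09 for MTHFD2. Changes beyond those bounds lie outside the intervals for these 4 genes. ALDH1L2 was less well bounded, at −0.23 to 0.57. PSAT1 gave −0.18 (95% interval −0.34 to −0.02) near background, with an unadjusted p = 0.027 that did not survive limma's adjustment (0.572). This pooled comparison called 0% of genes, and 8.38% had an unadjusted p below 0.05.

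Adding ASTX660 after SGI-110 gave no call either. Combination minus SGI-110 was 0.04 for PHGDH, 0.04 for PSPH, 0.02 for SHMT2, −0.01 for MTHFD1, −0.04 for MTHFD2 and 0.08 for ALDH1L2. For PSAT1 and SHMT1, both near background, it was −0.165 and −0.02. In this comparison limma called 0% of genes, and 2.92% had an unadjusted p below 0.05. The interaction asks how far the effect of both agents departs from adding their separate effects, and was −0.01 for PHGDH (95% interval −0.37 to 0.35), 0.04 for SHMT2 (−0.16 to 0.24) and −0.12 for MTHFD2 (−0.26 to 0.01). It was −0.07 for PSPH, 0.04 for PSAT1, −0.03 for MTHFD1, −0.175 for SHMT1 and −0.171 for ALDH1L2. The 95% interval for ALDH1L2 was wide, at −0.966 to 0.625 in the fit over all tested probe sets. The interaction called 0% of genes, and 1.61% had an unadjusted p below 0.05.

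SGI-110 before ASTX660 lowered the same 5 genes and ALDH1L2. Combination minus ASTX660 was −0.52 for PHGDH, −0.41 for PSPH (limma adjusted p = 0.00373), −0.35 for SHMT2 (limma adjusted p = 0.00264), −0.18 for MTHFD1 and −0.38 for MTHFD2 (limma adjusted p = 0.000113). This is 6 of 8 called lower, where 16.1% of all genes were called, 7.69% lower and 8.37% higher. ALDH1L2 (−0.82, 1.763-fold, limma adjusted p = 0.0478) was at the threshold and did not pass in 11 of 17 alternatives. Its adjusted p was 0.052, 0.154 and 0.0925 without ASTX660 array 2, 9 or 13, and 0.2 (at −0.48) and 0.0761 without combination array 2 or 13, over a range of 8.71e-05 to 0.2. MTHFD1 (limma adjusted p = 0.0135) was lost without ASTX660 array 9 (0.0623) or combination array 13 (0.0575), range 0.000901 to 0.0743. Without ASTX660 array 2, which stood apart, PHGDH, PSPH, SHMT2, MTHFD1 and MTHFD2 remained called.

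Neighbouring gene lists were read in the same comparison of 6 arrays against 6, in which 29.9% of all genes were called, 14.1% lower and 15.8% higher. Lists were not tested against each other. The enzymes of purine synthesis, a pathway that takes up folate-bound carbon at some of its steps, were called lower in 6 of 6. Their median was −0.25. ADSL fell by 0.28 (limma adjusted p = 5.66e-05), ATIC by 0.28, PAICS by 0.23 and PFAS by 0.31. In folate interconversion and transport 4 of 10 tested genes fell and 2 rose. MTHFD2L, a paralogue of MTHFD2, fell by 0.38 (1.302-fold, limma adjusted p = 0.000187), as did the mitochondrial folate carrier gene SLC25A32 (0.24) and the formyltransferase gene MTFMT (0.22). TYMS, the thymidylate synthase gene, rose by 0.10 (limma adjusted p = 0.00441). Both directions thus occur among folate genes, and the median of that list was −0.02.

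Of 3 tested glycine cleavage genes 2 fell, DLD by 0.17 and GCSH by 0.19, and 0 rose. The shares over all genes were again 14.1% lower and 15.8% higher. GLDC was below the median on all arrays. Of 7 methionine cycle and transsulfuration genes 3 fell and 0 rose, MTR by 0.14, MTRR by 0.15 and MAT2A by 0.11. In serine transport and use 6 of 12 fell and 2 rose. SFXN1, the carrier that brings serine into mitochondria, fell by 0.25 (limma adjusted p = 0.00104), and PTDSS1, which makes phosphatidylserine, by 0.11. SPTLC2, a subunit of the palmitoyltransferase that starts sphingolipid synthesis from serine, rose by 0.22, and SERINC1 by 0.21. In glycolysis next to 3-phosphoglycerate 1 of 5 fell (PGK1, by 0.10) and 0 rose, a share near that of all genes. The list medians were −0.17 for glycine cleavage, −0.11 for methionine, −0.07 for serine transport and use, and −0.03 for glycolysis.

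Among known regulators ATF4 fell by 0.41 (1.333-fold, limma adjusted p = 5.64e-07) and MYC by 0.46 (1.38-fold, limma adjusted p = 7.23e-06). Each had all 6 arrays with SGI-110 below the other 6, which held for 7.92% of all genes. MYC was the 1 of 3 tested genes called in the list of other regulators, whose median was 0.06. NFE2L2, a regulator of the oxidative stress response, gave 0.08 and its inhibitor KEAP1 gave 0.06, and neither passed. In the list of ATF4 and its amino acid response 9 of 14 fell and 2 rose (SESN2 and CEBPB), with a median of −0.24. Over all genes 14.1% were called lower and 15.8% higher. ATF5 fell by 0.79 (1.727-fold), SLC7A11 by 0.63 and SLC3A2 by 0.41. ASNS, the asparagine synthetase gene, fell by 0.53 (limma adjusted p = 0.000984). Whether ATF4 or MYC had a part in the enzymes' change was not tested.

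**Figure D4:**
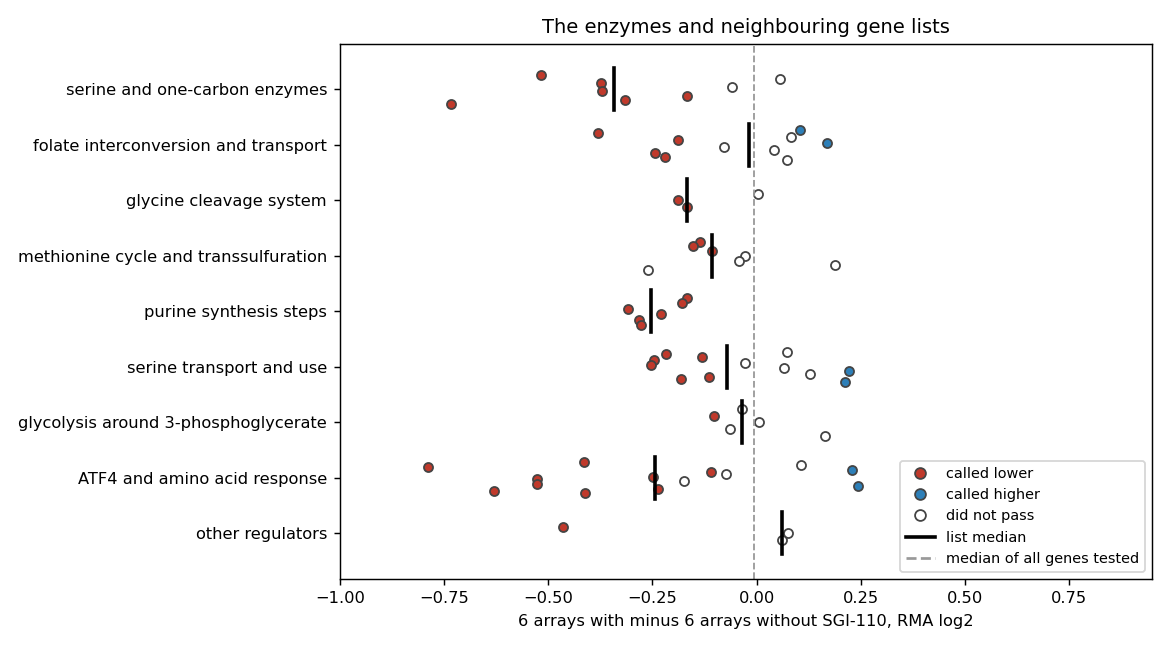
Pooled SGI-110 difference (6 arrays with minus 6 without, RMA log2, horizontal axis) for each tested gene of the enzyme set and of 8 neighbouring lists, red where called lower, blue where called higher and open where not passed; bars are list medians, and the dashed line is the median of all 12689 genes. The enzyme, purine and ATF4 rows have medians of −0.34, −0.25 and −0.24, and the folate transport and glycolysis rows lie near the dashed line.

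Across the 12 arrays the genes whose levels most resembled each enzyme were found by Pearson's r. For SHMT2 they were the purine enzyme gene ADSL (0.991), the glycyl-tRNA synthetase gene GARS1 (0.985) and TIMM50 (0.979). For PHGDH they were NIBAN1 (0.976), DESI1 (0.975) and EIF4EBP1 (0.973), and for MTHFD2 they were OSR2 (0.975), SLC38A5 (0.968) and SAMD13 (0.961). PSPH was closest to PTCD2 (0.974), and MTHFD1 to BZW2 (0.979). All 12 arrays share the split by SGI-110, so these values describe the arrays and carry no test.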

How the data were processed

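Gene expression of ML-2 cells was measured on 12 arrays in 4 groups of 3. The deposited values are log2 intensities that the authors made with RMA from the affy package, per the submitters' processing notes, without versions. They ranged from 2.078 to 14.38 over 54675 probe sets. RMA gives arrays like distributions and shrinks differences of dim probe sets, so a fold here is a ratio of array signals. The sources used here do not say whether all arrays were normalized together. Of the probe sets, 41091 had 1 symbol in the platform annotation, and 41037 of them matched the gene table by identifier. The model was fitted with limma 3.58.1 (R 4.3.3) to all 12 arrays, with a mean for each group, an intensity trend and 8 residual degrees of freedom. The number of arrays limits precision: the median standard error was 0.085 log2 units for SGI-110 with solvent. The scripts were tested on simulated data.

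Named genes were all members, per list up to 4 genes of lowest adjusted p, ATF4 and MYC, and the 3 genes with the highest r to a member, of which some are left out. The members and lists were chosen with earlier results of these data known. SESN2, CEBPB, ASNS, GLDC and the markers were named outside that rule after their values were seen. Deviations from the group mean correlated between arrays of the same number at 0.367 to 0.572 for SGI-110 with solvent and 0.15 to 0.541 for the combination with solvent, each pair over 0.1, so a fit with the number as a block is given there where it changes a call. The main model has no block, and the labels do not say what a number marks. Alternatives covered the block, filters, scaling, probe set choice, variance model and single arrays.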

Additional observations from a re-analysis of the deposited data

Results flagged for a closer look

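Of the 12 tested probe sets of the enzymes, only the second for MTHFD2, 234976_x_at, had opposite signs with ASTX660 without and after SGI-110 at every number. It was picked for these signs, so the p below is not independent of that choice. How often such signs occur over all probe sets was not counted. Without SGI-110 the ASTX660 array was higher than the solvent array of the same number by 0.24, 0.15 and 0.21 log2 units for numbers 2, 9 and 13. After SGI-110 the combination minus SGI-110 differences were −0.24, −0.16 and −0.08. The interaction was −0.362 (SE 0.116), and it did not pass limma's adjustment over 23660 probe sets (adjusted p = 1, unadjusted p = 0.00777). The brighter MTHFD2 probe set gave −0.12 (adjusted p = 1) with mixed signs after SGI-110.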

How the results depend on the processing

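Over 1176 recomputed member values 0 called changes reversed sign, 1134 kept their side of the threshold, 38 lost a call and 4 gained one. Uncalled changes switched sign in 68. Median centring, quantile normalization, a stricter or absent brightness filter, array weights, a robust fit and the compared groups alone moved no count of called members by over 1.5 times. Single calls did change under some of them, such as those of MTHFD1 against solvent with median centring. Leaving out 1 array gave 2 to 6 members called for the combination with solvent (5 with all arrays), 3 to 5 for SGI-110 with solvent (5), 4 to 6 for the combination with ASTX660 (6), and 6 to 6 for SGI-110 pooled over ASTX660 (6). With the replicate number as a block the counts were 6, 6, 6 and 6, and 0 for ASTX660 with solvent, for the combination with SGI-110, for the interaction and for ASTX660 pooled. Over all genes the block called 28.6%, 25.2%, 26.6% and 38.6% in the first 4, against 17.9%, 15.4%, 16.1% and 29.9% without it. Between combination and ASTX660 arrays the same-number correlations were 0.057, 0.158 and 0.539, the lowest being under 0.1. Those of the combination with solvent were little higher, at 0.15, 0.159 and 0.541. Block results of single genes were therefore not singled out for the combination with ASTX660. The block count above and the pooled differences within numbers do use that pairing. The stricter filter and the averaging of probe sets dropped PSAT1 and SHMT1, which leaves no value for them. Signal over background limits PSAT1, SHMT1 and MTHFD1L on the probe sets that were read.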
